A study of Sus scrofa with 2 samples.

Results

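Windows of 1 kb with little DNA methylation in muscle of 2 Tibetan pigs are described here. DNA methylation was measured by whole-genome bisulfite sequencing in longissimus dorsi, the long muscle of the back, of 1 female pig per group. The high-altitude pig was free-ranging in the Tibetan highland (4000 m on average), and the low-altitude pig was kept under experimental conditions with daily feed in the Chengdu plain (500 m on average) and came from Tibetan pigs raised there for generations. Altitude, feeding, housing and line of descent differed together, the sources used here give no age, and each value rests on a single library without a replicate.

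Bisulfite turns unmethylated cytosine into a base read as thymine, so the share of reads that still show cytosine is the methylation level. Only CpGs listed for both pigs were used, with the reads of both strands summed. To be tested, a window needed 5 or more such CpGs, all covered by 5 or more reads per library. Of 423427 windows tested on the 18 autosomes, 1048 (0.248%) had a level below 30% in both libraries, and these are called low windows. The levels in both libraries chose them, so their levels are a description and carry no test. In a piece of muscle, a low level from a few methylated cells and one from a few methylated copies in every cell cannot be told apart, and the tissue label was not checked, since only DNA methylation was measured.

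In mammals most CpGs of a tissue are methylated, and the maintenance methyltransferase DNMT1 copies the mark to the new strand at each cell division. Stretches that stay unmethylated are typically CpG islands at gene starts and elements bound by transcription factors. Much of the methylation of a genome lies in repeats, where it is known for keeping mobile elements silent. No genome or annotation of the assembly behind the files was used here, so positions are those of the files, the sources used here name no build, and no gene or sequence can be set beside a window.

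The deposited lists limit what a low window can be. Every listed cytosine had at least 1 methylated read and at least 5 reads, so a cytosine with 5 reads could not be listed below 20%, and a CpG without methylated reads was absent. A fully unmethylated CpG island would therefore not appear among the low windows. If each listed cytosine had carried its single required methylated read, the low windows would have had a median level of 5.56% at high altitude and 5.29% at low altitude, against 10.1% and 10.4% over all windows. Their measured medians were higher, at 23.4% and 22.9%. In the low windows 16.8% of cytosines at high altitude and 18.5% at low altitude had a single methylated read, against 1.85% and 1.96% over all windows. No low window consisted of such cytosines alone in both libraries.

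Most low windows lay close to the limit of 30%, and few approached 0. Taking the higher of the 2 levels, 582 low windows (55.5%) were at 25 to 30%, 282 at 20 to 25%, 168 at 10 to 20%, 12 at 5 to 10%, and 4 below 5%. In the high-altitude library the levels ran from 0.674% to 29.9% with quartiles of 19.2% and 27.0%, and in the low-altitude library from 0.873% to 29.95% with quartiles of 18.4% and 26.3%. All tested windows had medians of 77.6% and 76.5%. Over reads, the low windows held 22.1% methylated reads at high altitude, of 500227, and 21.1% of 431196 at low altitude.

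**Figure D1:**
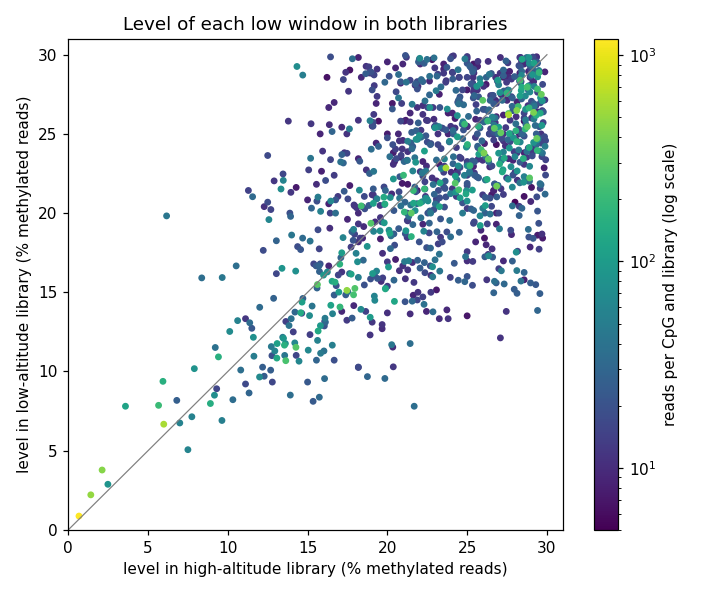
Each point is 1 of the 1048 low windows, with its level in the high-altitude library (x axis, % methylated reads) and in the low-altitude library (y axis), coloured by reads per CpG and library on a log scale. The grey line marks equal levels. Points crowd towards 30% on both axes, and the 4 windows below 5% had 85.9 to 1178 reads per CpG.

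Among windows with at least 10 CpGs, those at the limit show how narrow the choice was. Just inside lay the window from 108904001 to 108905000 on chromosome 4, with 21.1% at high and 29.95% at low altitude, and the window from 108911001 to 108912000, with 24.1% and 29.9%. Just outside lay the window from 82605001 to 82606000 on chromosome 11, with 25% and 30%, and the window from 164001 to 165000 on chromosome 1, with 30% and 27.5%. The counting intervals of all 4 windows (95% Wilson) covered 30% in at least 1 library.

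How far the libraries shared their low windows was read by choosing in one library and looking in the other. Of 1947 windows below 30% in the high-altitude library, 1048 (53.8%, 95% exact interval 51.6 to 56.1) were also below 30% in the low-altitude library, where 0.48% of all autosomal windows were. Of 2032 windows low in the low-altitude library, 51.6% (49.4 to 53.8) were low in the high-altitude library, against 0.46% of all windows. Windows chosen in the high-altitude library had a median of 28.9% in the low-altitude library, with quartiles of 22.3% and 37.5%, and only 34 of them (1.75%) reached 60%. In the opposite direction the median was 29.5%, and 23 windows (1.13%) reached 60%. These intervals count windows as independent, although neighbouring windows share DNA, and they cover counting error only.

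The strands give another reading that the choice did not use. In 37367 autosomal windows with at least 5 listed cytosines on each strand, 189 were below 30% on the plus strand in both libraries. On their minus strand these had medians of 29.2% at high and 26.2% at low altitude, and 95 (50.3%, exact interval 42.9 to 57.6) were again below 30% in both. Chosen on the minus strand, 95 of 193 windows (49.2%) were low on the plus strand.

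Cytosines inside the low windows that only one library listed took no part in the choice either. They lay among the cytosines that chose the windows and can share reads with them, so this reading is not independent of the choice. There were 2186 of them in the high-altitude library, with 22.4% methylated reads (95% Wilson interval 21.9 to 22.9), against 73.9% in all tested windows. At low altitude there were 1962, with 18.9% (18.4 to 19.4), against 72.9%. Their median depth was 7 reads in both libraries, and 37.2% and 41.5% of them had a single methylated read. The mean of their site levels was higher, at 31.3% and 29.6%, against 74.8% and 74.0% in all tested windows. In the low-altitude library the level over reads was 11.4% in low windows of at least 10 CpGs and 8.73% in windows below 20%.

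Read depth moved with membership. Low windows had a median of 22.0 reads per CpG and library (quartiles 12.4 and 43.8), and all windows 11.3 (8.93 and 14.4). Among windows with 5 to 10 reads per CpG, 132 of 154245 (0.0856%) were low. The share was 0.144% at 10 to 20 reads (355 windows) and 1.47% at 20 to 50 reads (325 of 22054). It reached 25.9% at 50 to 100 reads (130 of 502 windows, exact interval 22.1 to 29.96) and 24.4% at 100 or more (106 of 435, 20.4 to 28.7). The autosomal windows in those last 2 classes were of low or intermediate level as a whole, with medians of 36.7% and 34.9% at high altitude and 33.6% and 32.1% at low altitude. Whether deep windows stand for sequence with more copies in the pigs than in the assembly was not tested.

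Depth also went with the agreement of the libraries. Of the windows low in the high-altitude library, 28.9% were low in the other library at 5 to 10 reads per CpG, 43.6% at 10 to 20, 76.8% at 20 to 50, 92.2% at 50 to 100 and 93.8% at 100 or more. For windows chosen in the low-altitude library the shares were 33.1%, 44.9%, 67.3%, 71.0% and 59.9% in the same order. The windows of 5 to 10 reads chosen in the high-altitude library had a median of 36.7% in the other library, and those of 50 to 100 reads a median of 22.1%. The share of all windows that were low in the other library also differed by depth. In the low-altitude library it was 0.259% at 5 to 10 reads, 0.321% at 10 to 20, 2.19% at 20 to 50, 36.5% at 50 to 100 and 40.7% at 100 or more, and in the high-altitude library it ran from 0.296% to 28.1% at 50 to 100 and 25.98% at 100 or more. The agreement of deep windows is therefore to be read against a far higher share than that of shallow ones.

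**Figure D2:**
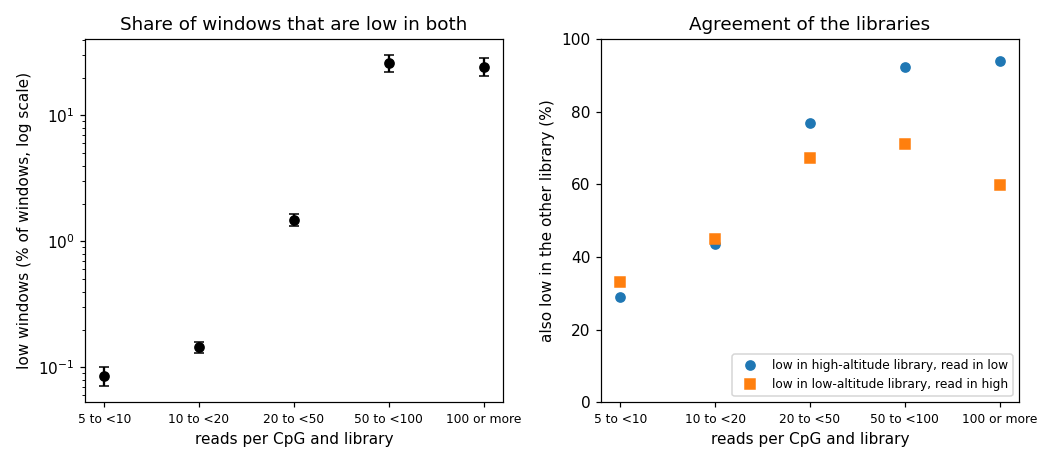
Left, the share of tested autosomal windows that were low in both libraries (y axis, %, log scale) by reads per CpG and library (x axis, 5 classes), with 95% exact intervals as bars. Right, the share of windows low in one library that were low in the other (y axis, %). The left share is below 0.2% under 20 reads and near 25% from 50 reads up, and the circles on the right climb from 28.9% to 93.8%.

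The low windows fell into 2 settings that the rule did not ask for. Some low windows lay together in stretches of reduced methylation and high depth, and others lay alone, mostly in DNA of high methylation. When low windows were joined across gaps of up to 100 kb, 401 (38.3%) belonged to 18 clusters of at least 10, 388 (37.0%) had no other low window within 100 kb, and 259 lay between these cases. The gap and the minimum of 10 were set after values were seen.

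Clustered low windows had a median depth of 43.1 reads per CpG (quartiles 25.5 and 88.8), and lone ones 11.6 (9.5 and 15.4), which is near that of all windows. Their own levels were close, with medians of 23.6% at high and 21.5% at low altitude for clustered and 23.7% and 24.1% for lone windows. Their surroundings differed. The CpGs 2 to 10 kb from the edges of clustered windows, leaving out those in other low windows, had a median level of 37.3% and 34.3%. Around lone windows the medians were 71.6% and 69.9%, and around all autosomal windows 75.3% and 74.2%. Flanks of at least 60% in both libraries were found at 288 lone windows (74.2%) and at 2 clustered windows, against 92.7% of all autosomal windows.

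Methylation was high again a short distance from lone windows. The mean level of CpGs in lone windows was 24.9% at high and 25.3% at low altitude. In the 1 kb next to them it was 62.6% and 62.0% on the side of lower positions and 61.6% and 60.6% on the other, and at 10 kb 70.1% and 69.97%, and 72.1% and 71.0%. Around clustered windows, with the CpGs of other low windows now included, the mean was 26.3% and 24.3% inside, 32.6% and 30.2% in the next 1 kb towards lower positions, and still 36.3% and 33.7% at 20 kb on that side. The level inside was set by the rule, and the split into clustered and lone windows by low windows nearby, so part of this contrast follows from the choice.

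**Figure D3:**
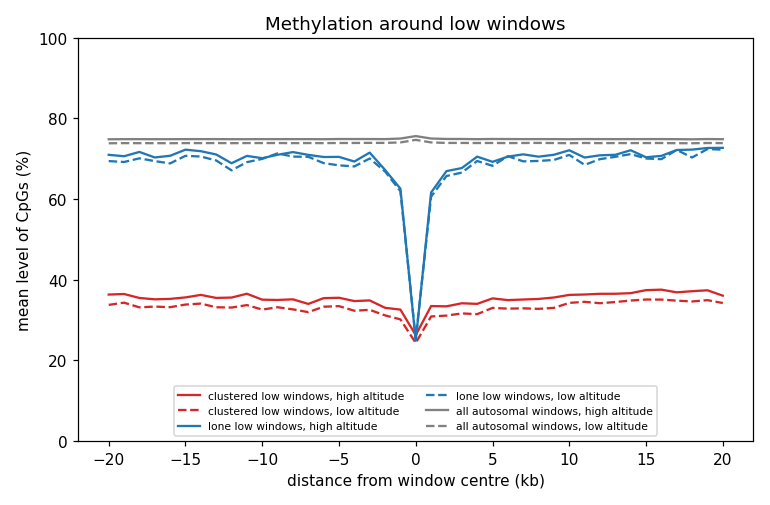
Mean level of listed CpGs (y axis, %) in 1 kb steps by distance from the window centre (x axis, kb) around 401 clustered low windows, 388 lone low windows and all autosomal windows, solid for the high-altitude and dashed for the low-altitude library. Lone windows dip from about 70% to 24.9%, and clustered windows stay below 40% over the 20 kb drawn on each side.

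Low windows were often neighbours. Of 398 low windows whose next window could be tested, 117 (29.4%, exact interval 24.96 to 34.1) were followed by another low window, against 0.291% of all windows with a tested neighbour. Runs without a gap held 208 low windows (19.8%) in 91 runs. Of these runs 70 had 2 windows, 17 had 3, 3 had 4 and 1 had 5.

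The longest run covered 5 kb on chromosome 15, from 155264001 to 155269000, with 37 CpGs at 24.1% at high altitude (753 of 3124 reads) and 21.4% at low altitude (562 of 2628 reads). On chromosome 3 the run from 142468001 to 142472000 had 79 CpGs at 26.9% and 24.7%, with a median depth of 142 reads per CpG. The run from 260001 to 264000 on chromosome 18 had 22.8% and 20.9%. That from 48924001 to 48927000 on chromosome 12 had 60 CpGs, the most of the 17 runs of 3 windows, at 29.2% and 27.5%. All of these were deep.

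A run of lower level lay on chromosome 16, from 29289001 to 29293000. Its 39 CpGs had 9.88% at high altitude (127 of 1285 reads) and 7.93% at low altitude (101 of 1274 reads), lower than in the other runs named here. Its median depth was 26.3 reads per CpG, against 22.0 in low windows and 11.3 in all windows. The CpGs 2 to 10 kb from its windows had median levels of 49.0% and 51.7%, against 75.3% and 74.2% around all windows.

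The 18 clusters lay on 9 chromosomes and covered 3570 kb, in which 401 of 1231 tested windows (32.6%) were low. Of the other 830 windows inside them, 60 reached 60% in both libraries. The largest cluster, on chromosome 15 from 155183001 to 155589000, held 75 low windows among 197 tested. Its low windows had 21.7% methylated reads at high and 20.4% at low altitude, and its other windows medians of 39.6% and 37.5%. Its tested windows had a median depth of 46.6 reads per CpG. In the windows 100 to 500 kb outside it the depth was 8.83 and the levels were 83.7% and 82.1%, so this low stretch ended in highly methylated DNA.

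Several clusters lay near chromosome ends. On chromosome 18, from 232001 to 394000, 44 of 114 windows were low, with 21.6% and 19.9%, and the tested windows had a median of 90.1 reads per CpG. On chromosome 1, from 11001 to 172000, 37 of 99 windows were low, with 21.0% and 20.3%. Chromosome 17 had 19 low of 30 windows from 69411001 to 69484000, with 20.8% and 20.2%, and chromosome 10 had 18 of 30 from 78725001 to 78867000, with 21.5% and 21.2%. These 4 clusters lay within 2 Mb of the first or last CpG shared by the lists. More lay just past that cut. The cluster from 67529001 on chromosome 17 was 2.02 Mb from such an end, and the largest cluster, on chromosome 15, 2.09 Mb. That from 312800001 on chromosome 1 was 2.19 Mb away and that from 142458001 on chromosome 3 was 2.23 Mb away. In all, 178 low windows (17.0%) lay within 2 Mb of such an end, against 3.12% of all autosomal windows, and among lone low windows the share was 5.67%.

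Some other clusters lay farther inside the chromosomes. On chromosome 2, from 11428001 to 11465000, 18 of 21 tested windows were low, the highest share of any cluster, with 21.1% at high and 17.96% at low altitude. On chromosome 3, from 45169001 to 45467000, 26 of 86 windows were low, with 23.0% and 21.9%, and the windows 100 to 500 kb outside had 83.6% and 85.2%. On chromosome 6, from 143339001 to 143463000, 17 of 118 windows were low, with 28.2% and 24.8%, and the tested windows had a median of 109 reads per CpG. Not every cluster stood out from its wider surroundings. Around the cluster from 78725001 on chromosome 10 the windows 100 to 500 kb outside had 33.7% and 29.9%, and around that from 312438001 to 312659000 on chromosome 1 they had 36.4% and 33.7%.

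**Figure D4:**
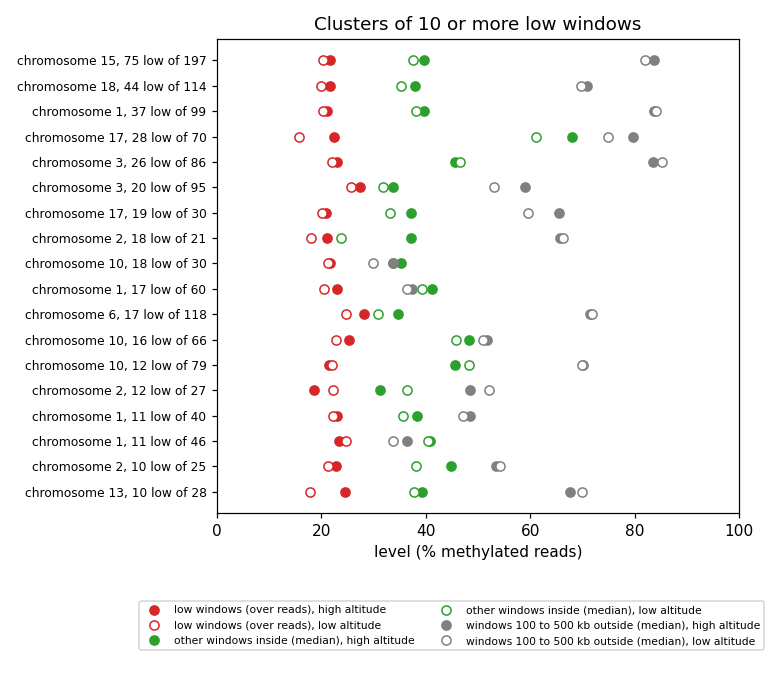
For each of the 18 clusters (rows, with the chromosome and the number of low windows of those tested), the level in % methylated reads (x axis) of its low windows over reads, the median of its other tested windows, and the median of tested windows 100 to 500 kb outside, filled for the high-altitude and open for the low-altitude library. In the top row, of chromosome 15, these are 21.7%, 39.6% and 83.7% in the high-altitude library.

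The share of low windows differed widely between chromosomes. It was highest on chromosome 17, with 69 of 11051 windows (0.624%), and chromosome 2, with 135 of 25250 (0.535%). It was lowest on chromosome 8, with 27 of 29193 (0.0925%), and chromosome 11, with 19 of 19284 (0.0985%). The most low windows were counted on chromosome 1 with 137, chromosome 2 with 135, chromosome 15 with 100 and chromosome 3 with 94. The depth of the low windows did not follow this order throughout. Their median was 27.8 reads per CpG on chromosome 17 and 22.1 on chromosome 2, against 11.6 on chromosome 11 and 11.8 on chromosome 8. The deepest were those of chromosome 18, with 82.2 reads and a share of 0.384%, while chromosome 6 had 39.7 reads and a share of 0.162%. Some of these counts came largely from clusters and do not describe a whole chromosome. The clusters of chromosome 17 held 28 and 19 of its 69 low windows, and that of chromosome 15 held 75 of 100. On chromosome 18 the cluster held 44 of 55, with a median of 134 reads per CpG. The clusters of chromosome 2 held fewer, with 18, 12 and 10 of 135.

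Low windows held about as many listed CpGs as the others. The median was 6 CpGs in low windows and in all windows, and 152 low windows (14.5%) had at least 10, against 11.8% of all. The distance from the first to the last CpG had medians of 651 and 655 bases. Of the cytosines listed for a low window in either library, a median of 72.7% were listed in both, against 66.7% over all windows. Low windows were deeper, and within every depth class their share was the lower one. It was 55.6% against 58.3% at 5 to 10 reads per CpG, 75% against 85.7% at 20 to 50, and 88.2% against 91.7% at 100 or more. Listed CpGs are not the CpGs of the sequence, so the CpG density of these windows was not measured.

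Inside a low window the CpGs were uneven. Of 7627 CpGs in low windows, 15.5% were below 10% in the high-altitude library, 51.6% at 10 to 30%, 27.9% at 30 to 60% and 5.13% at 60% or more. The low-altitude library had 17.0%, 51.7%, 26.5% and 4.76%. Only 52 low windows (4.96%) had every CpG below 30% in both libraries, and 117 (11.2%) held a CpG at 60% or more in both. The median SD over the CpGs of a window was 14.1 points at high and 13.5 points at low altitude.

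CpG levels were also compared between the pigs, over all low windows together. The levels of the CpGs in low windows correlated between the libraries with Pearson's r = 0.686 across 7627 CpGs, against 0.564 in all tested autosomal windows. Where both libraries had 20 or more reads, at 3510 CpGs, r was 0.822, against 0.783 in all tested autosomal windows. Each r mixes differences between windows with those inside a window, so it does not measure how far the unevenness inside a window recurred. These values describe CpGs, which share windows, libraries and depth and are not independent replicates.

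Since reads were summed, a few deep CpGs could set the level of a window. In 281 low windows the mean of the CpG levels was 30% or more in at least 1 library, although the level over reads was below it. The windows of at least 10 CpGs with the lowest levels show 1 window low at every CpG used, all of them deep. In the others most reads came from deep CpGs of low level, and some CpGs with few reads were higher. In the window from 59239001 on chromosome 4, only the CpG with the fewest reads was at 30% or more. A CpG with few reads could not be listed at a level as low as a deep one, because at least 1 methylated read was required.

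The window from 54725001 to 54726000 on chromosome 16 was low at every CpG listed in both libraries. It had 2.49% at high altitude (54 of 2173 reads, 95% Wilson interval 1.91 to 3.23) and 2.88% at low altitude (66 of 2292 reads, 2.27 to 3.65). Its 26 CpGs ran from 0.893% to 4.71% and from 0.862% to 8.77%, with 45 to 154 and 41 to 157 reads each. They lay 554 to 772 bases from the window start, and no shallow CpG of this window was listed in both libraries. The level of shallow CpGs there could therefore not be read. The CpGs 2 to 10 kb away had 83.4% and 85.2%, so this deep stretch was a sharp dip in highly methylated DNA. Only 27 of the 60 cytosines listed there in either library were listed in both, and CpGs without methylated reads were not counted. If each of those 27 had carried a single methylated read, the levels would have been 1.24% and 1.18%.

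On chromosome 4 the window from 59239001 to 59240000 had the lowest level of all low windows, 0.674% at high altitude (141 of 20915 reads, 0.572 to 0.794) and 0.873% at low altitude (126 of 14434 reads, 0.734 to 1.04). It was also the deepest, with 1178 reads per CpG. Of its 15 CpGs, 11 had at least 100 reads in each library, gave 98.6% and 98.9% of the reads and ran from 0.235% to 2.81% and from 0.489% to 4.598%. Of the other 4 CpGs, that with the fewest reads, 8 and 7, was at 50% and 57.1%. The rest ran from 4.92% to 9.72% and from 6.45% to 17.1%. The window before it, from 59238001 to 59239000, had 1.42% and 2.21%. There 4 of 11 CpGs gave 95.6% and 96.0% of the reads, and the other 7 CpGs ran from 5.77% to 58.3% and from 13.5% to 60%.

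On chromosome 15 the window from 140262001 to 140263000 had 2.12% (258 of 12149 reads) and 3.78% (276 of 7301 reads), and its 15 deep CpGs gave 98.7% and 98.1% of the reads. In the window before it, from 140261001 to 140262000, the level was 5.94% over 4397 reads and 9.38% over 2623 reads, while the median CpG was at 62.5% and 74.3%. There 4 of 22 CpGs gave 84.7% and 82.4% of the reads and stayed at or below 7.5%, and the other 18 ran up to 100% in both libraries. The CpGs 2 to 10 kb from it had 76.2% and 73.4%. By its CpGs rather than its reads, this window was not low.

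**Figure D5:**
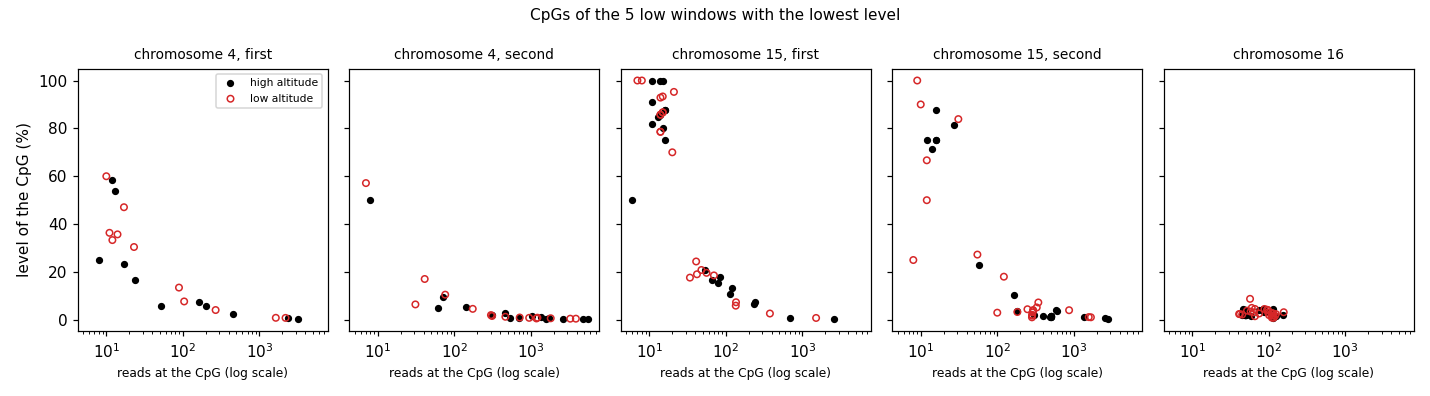
Level of each CpG (y axis, %) against its reads (x axis, log scale) in the 5 low windows with the lowest levels among those of at least 10 CpGs, filled for the high-altitude and open for the low-altitude library; first and second name neighbouring windows by position. On chromosome 16 every CpG is below 10%, while on chromosomes 4 and 15 the deep CpGs are near 0 and the shallow ones reach up to 60% and 100%.

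None of the windows with the most CpGs was shallow, and only that on chromosome 16 was very low. The window from 117001 to 118000 on chromosome 6 had 35 CpGs at 26.2% (5185 reads) and 22.1% (4623 reads). Its CpGs ran from 7.30% to 91.7% in the high-altitude library. On the same chromosome the window from 143376001 to 143377000 had 27 CpGs at 28.6% and 25.3%, and that from 143384001 to 143385000 had 26 CpGs at 29.4% and 24.7%. On chromosome 3 the window from 142493001 to 142494000 had 24 CpGs at 25.9% and 24.0%. Of the 3 deepest low windows, the other two were the window from 143387001 to 143388000 on chromosome 6, with 617 reads per CpG at 27.6% and 26.2%, and the window from 279001 to 280000 on chromosome 18, with 589 reads per CpG at 5.99% and 6.67%.

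The comparison between the pigs, which asks whether muscle methylation differed between highland and lowland, was limited here by the choice of windows. A level below 30% in both libraries bounds the difference, so counts of calls in low windows are a description. Each difference is the low-altitude level less the high-altitude level. By Fisher's exact test on summed reads with Benjamini-Hochberg adjustment over 462691 nuclear windows, and a difference of at least 20 points, 0 of 1048 low windows were called, against 0.494% of all nuclear windows. At an unadjusted p below 0.05 there were 113 (10.8%), against 9.88% of all. An adjusted p below 0.05 at any difference was reached by 18 low windows (1.72%), against 0.624% of all. Of these, 6 differed by at least 10 points, against 0.594% of all. More reads let smaller differences reach a low p, and low windows had a median of 22.0 reads per CpG, against 11.3 over all autosomal windows. Without CpGs over 200 reads, 7 of 1013 low windows had an adjusted p below 0.05 by the same test. No share over all windows was taken at that setting, so this count has nothing to be read against. The part of depth in the 1.72% was not tested. The test compares 2 libraries and not 2 altitudes, and neighbouring CpGs share reads, so these p-values are too small.

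The median difference over low windows was −0.84 points (quartiles −3.58 and 2.25), and 601 of them (57.3%) were lower in the low-altitude library. Over all autosomal windows the median was −0.96 points and 54.8% were lower. Differences in low windows ran from −15.6 to 14.9 points. Clustered and lone windows did not share a direction, since 279 of 401 clustered windows (69.6%) and 172 of 388 lone windows (44.3%) were lower in the low-altitude library. This contrast was noticed in the data and not tested. In the flanks of low windows, the CpGs 2 to 10 kb away had a median difference of −1.77 points and were lower at 732 of 1046 windows (69.98%), against −0.99 points and 61.4% around all windows.

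In some clusters most windows differed in one direction. The other windows named here were also sorted by the rule, as those not low in both libraries. On chromosome 17, from 67529001 to 67680000, 25 of 28 low windows were lower in the low-altitude library, with 22.5% and 15.8% over reads, and so were 35 of the 42 other windows, whose medians were 68.1% and 61.1% and of which 21 were at 60% or more in both libraries. Depth there was unequal, with 0.74 times as many reads in the high- as in the low-altitude library. In the cluster on chromosome 6 named above, all 17 low windows and 90 of 101 others were lower, with a read ratio of 1.13. On chromosome 13, from 170772001 to 170969000, the low windows had 24.5% and 17.7% over reads, 9 of 10 were lower, and the read ratio was 0.706. The 18 other windows there differed less, with medians of 39.2% and 37.7%, and 13 were lower. The opposite direction was seen on chromosome 2, from 15064001 to 15232000, where 3 of 12 low windows and 4 of 15 others were lower and the low windows had 18.5% and 22.2%, with a read ratio of 0.969. Windows of a cluster share DNA and are not replicates, and the part of copy number or mapping in these differences was not tested.

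Among low windows with at least 10 CpGs, the 3 with the largest negative differences lay close together in that cluster of chromosome 17. The first, from 67540001 to 67541000, had 103 methylated of 377 reads in the high-altitude library, which is 27.3%, and 59 of 380 in the other, which is 15.5%. Its median CpG was at 58.3% in the high- and 34.3% in the low-altitude library, so by its CpGs this window was not low. It differed by −11.8 points, with an adjusted p of 0.0244 by the exact test. The next, from 67536001 to 67537000, had 26.8% and 15.6% (exact test, adjusted p = 0.0645), and the last, from 67543001 to 67544000, had 29.1% and 18.4% (exact test, adjusted p = 0.156). The 3 with the largest positive differences lay apart. They were the window on chromosome 4 from 108904001, with a difference of 8.82 points, the window from 96941001 to 96942000 on that chromosome, with 21.2% and 29.8%, and the window from 55881001 to 55882000 on chromosome 2, with 20.1% and 28.6%. Their adjusted p-values were 0.387, 0.543 and 0.533 by the exact test, and none passed the threshold.

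Single CpGs were tested where both libraries had 10 or more reads. Of these, 2 of 5530 CpGs in low windows (0.0362%) were called by Fisher's exact test at a difference of at least 25 points, against 0.323% of all nuclear CpGs. The 1 that fell stands against 0.176% of all CpGs and the 1 that rose against 0.146%. The first, at 143462717 on chromosome 6, had 40.7% (35 of 86 reads) and 10% (8 of 80 reads), with an adjusted p of 0.007 by the exact test. The second, at 26143269 on chromosome 7, had 12.9% (8 of 62 reads) and 41.7% (40 of 96 reads), with an adjusted p of 0.0355 by the exact test.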

How the data were processed

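Each deposited list gave, per the file headers, counts of methylated and unmethylated reads at CpG cytosines, the level as a fraction, and p-values, raw and corrected. The submitters' processing notes name Bismark 0.12.5. Build, read filters and duplicate removal: not given in the sources used here. From the values, every listed cytosine had a corrected p-value below 0.05. The counts were used for all levels, and the deposited fraction and p-value only for checks of range.

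The autosomal lists held 9527968 cytosines with 91619676 reads in the high-altitude and 9227228 with 87482185 in the low-altitude library, at a median of 8 reads in both. Levels are methylated over all reads. Differences were tested by Fisher's exact test, with p-values adjusted (Benjamini-Hochberg) over all nuclear windows, X and unplaced sequences included, in Python 3.11.15 with numba 0.67.0. The exact p-values were checked against scipy 1.17.1 and tested on simulated data. Wilson and exact intervals treat reads or windows as independent and cover counting error only. Alternatives were the reads per CpG, the CpGs per window, the level, the size and start of windows, the mean over CpGs, very deep CpGs and the size of a called difference.

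The low windows and the tests were chosen with earlier results of these data known. Named windows are those with the most CpGs, the lowest levels, the longest runs, the largest rises and falls, the greatest depth and the levels nearest the limit. Other named windows and clusters were picked with their values in view.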

Additional observations from a re-analysis of the deposited data

How the results depend on the processing

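No paired analysis was possible because each group had a single pig. The number of low windows was 1048, and 1213 with windows of 2 kb, 1057 with windows shifted by 500 bases, 901 by the mean of CpG levels and 1013 without CpGs over 200 reads. It was 598 with at least 10 reads per CpG, 152 with at least 10 CpGs and 184 at a level below 20%. As a share of the windows tested, 0.248% became 0.611%, 0.304% and 0.0435% in that order. The share of low windows of the high-altitude library that were low in the low-altitude library, and the reverse share, were 74.6% and 63.1% with 10 reads per CpG, 70.05% and 47.8% with 10 CpGs, and 58.7% and 56.6% with 2 kb windows. The first was 51.3% by the mean of CpG levels, and the reverse 49.3% at a level below 20%. The median level 2 to 10 kb away was, at high and low altitude, 39.4% and 37.1% with 10 reads, 36.9% and 33.96% with 10 CpGs, 39.3% and 37.03% below 20%, 42.8% and 40.6% with 2 kb windows, and 45.3% and 43.7% without CpGs over 200 reads. It was 43.9% in the high-altitude library with shifted windows and 42.6% in the low-altitude library by the mean of CpG levels. At cytosines of low windows listed in one library the level was 19.1% and 15.9% with 10 reads, 18.5% and 11.4% with 10 CpGs, 14.8% and 8.73% below 20%, 19.9% and 17.1% by the mean of CpG levels, 23.4% and 20.1% without CpGs over 200 reads, and 20.4% in the low-altitude library with 2 kb windows. The cause of these shifts was not tested. At a difference of at least 10 points, 6 low windows were called, 3 lower and 3 higher, against 0.594% of all nuclear windows. No low window was called at 20 points under the alternatives run. With 5 reads per CpG, 1 CpG was called.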

Other observations

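Under the same rule, 85 of 24316 tested windows on the X chromosome (0.35%, 95% exact interval 0.279 to 0.432) and 22 of 14948 on unplaced sequences (0.147%, 0.0923 to 0.223) were below 30% in both libraries. More unequal depth was seen in low windows than in all autosomal windows. The high-altitude library had more than 2 times the reads of the low-altitude library in 12 low windows (1.15%, against 0.187% of all), and less than 0.5 times in 15 (1.43%, against 0.177%).

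Some of the 18 low windows with an adjusted p below 0.05 in Fisher's exact test differed by over 10 points, and these 6 were chosen after their values were seen. Lower in the low-altitude library were the window at 610001 on chromosome 10 (w10_610001), with 21.7% and 7.81%, and w17_67540001 and w17_67667001, the latter with 19.8% and 9.56%. Higher were 3 windows on chromosome 2, w2_14946001 with 14.3% and 29.3%, w2_15231001 with 6.16% and 19.8%, and w2_15418001 with 14.7% and 28.7%. The names give the chromosome and the first base of a window.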
